A study of Oryza sativa with 18 samples.

Results

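Among 34716 loci measured by poly(A) RNA sequencing of rice seedlings (Oryza sativa L. ssp. japonica cv. Nipponbare), 2019 carried no RAP gene name, RAP being the rice annotation project whose identifiers begin with Os. The loci described here are the 881 of them for which at least 1 assembled isoform had 2 or more exons, the other 1138 being single-exon. Membership was decided from the name and the exon number alone, and no FPKM value was used for it. Loci without a name are known only from assembled reads, however, so they had to be expressed enough to be assembled. Named loci did not have to meet this condition, so levels and detection set beside theirs are descriptions. Each library was a pool of 3 seedlings, and 3 libraries were made for each of 6 groups of labelled 4-week-old plants. Zn-resupplied roots (ZRR) and shoots (ZRS) came from seedlings grown without added Zn for 2 weeks and then returned to 1.5 µM Zn for 3 days. Zn-deficient roots (ZMR) and shoots (ZMS) came from seedlings grown without added Zn for 2 weeks, and control roots (ZPR) and shoots (ZPS) from seedlings kept at 1.5 µM Zn. All seedlings had first been grown in nutrient solution with Zn. Whole roots or shoots were used, so each library mixes many cell types. The labels give the same age for all groups although resupplied plants had 3 further days of treatment, so that resupply and a difference in age cannot be told apart. Fewer cells of a type and less RNA per cell cannot be told apart in such libraries either.

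Spliced transcripts from loci that an annotation lacks can be protein-coding genes missed by it, long noncoding RNAs, transcribed repeats, or pieces of neighbouring genes. In plants, such transcripts are known for low levels and for restriction to particular organs. Rice answers Zn shortage mainly by raising plasma membrane transporters of the ZIP family, which carry Zn into cells, and metallothioneins are small cysteine-rich proteins that bind Zn and Cu. The Zn-responsive loci below lie beside genes of both kinds and in a block of uncharacterised genes on chromosome 8.

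All values are FPKM, the fragments of a transcript scaled to its length and to the mapped reads of the library. The groups carried the expression of their tissue. The summed FPKM of 6 green-tissue genes was 50.4 to 177 in the 9 root libraries and 2481 to 5747 in the 9 shoot libraries. The sum of the 3 root genes RCc3, Lsi1 and Lsi2 was 747 to 2388 in root libraries and 4.12 to 16.7 in shoot libraries. The sum of the Zn transporter genes OsZIP4, OsZIP8 and OsZIP10 was 52.8 to 86.0 in ZMR and 4.31 to 4.75 in ZPR. It was 91.8 to 128 in ZMS and 10.3 to 12.9 in ZPS. Coverage per FPKM, which stands for depth, was 3.67 reads per base in ZRR 3 and 6.0 to 7.75 in the other libraries.

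Replicate 1 stood apart from the other 2 libraries in all 6 groups. The 881 loci summed to 12018 FPKM in ZRS 1, against 1621 in ZRS 2 and 1459 in ZRS 3. They summed to 3806 in ZPS 1, against 1530 and 1766 in the other ZPS libraries, and to 2814 in ZMS 1, against 1542 and 1576. Root libraries showed a smaller gap, the largest being 3501 in ZMR 1 against 2356 and 2347. The 20 loci of highest mean level made up 87.4% of the sum in ZRS 1 and 30.3% to 67.0% in the other libraries. Without these 20 loci the sum was 1515 in ZRS 1, 972 in ZRS 2 and 902 in ZRS 3. Among 790 loci that reached 0.5 FPKM in at least 3 of 18 libraries, replicate 1 held the highest value of its group in 32.8% (ZRS) to 62.3% (ZPR) of loci. The same share over 20947 named multi-exon loci was 16.7% (ZRS) to 39.5% (ZPR). Results that rest on replicate 1 are therefore given with and without it, and its part in them was otherwise not tested.

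**Figure D1:**
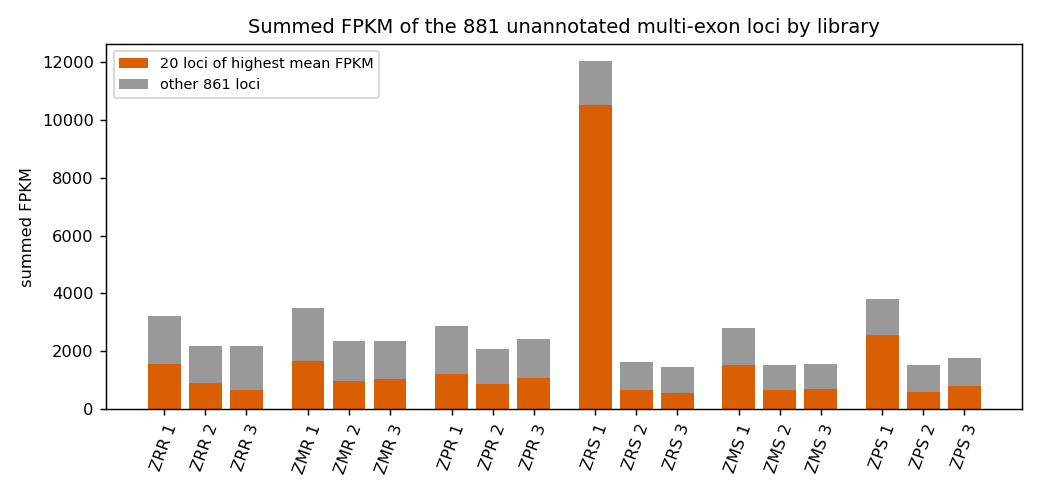
Summed FPKM of the 881 unannotated multi-exon loci in each of the 18 libraries, with the 20 loci of highest mean level in orange and the others in grey. ZRS 1 reached 12018 FPKM, and replicate 1 was the highest library in every group.

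Most of these loci were short and had few exons. The largest isoform had 2 exons at 442 loci, 3 at 219, 4 or 5 at 144, and 6 or more at 76. The longest isoform had a median of 1224 bp (interquartile range 730 to 2044), against 704 bp at unannotated single-exon loci and 1825 bp at the 26054 named loci with 2 or more exons. The span on the genome, introns included, had a median of 2431 bp, against 3692.5 bp at named multi-exon loci. A total of 608 loci had 1 isoform, 273 had more, and MSTRG.12263 on chromosome 4 (16861805 to 16872564, minus strand, IRGSP-1.0 as are all coordinates) had 38. All 1454 isoforms carried the class code u, which in the usual notation of assembly comparison means an intergenic transcript without a match. At 48 loci an isoform of 1 exon stood beside the spliced ones.

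Loci with more exons were longer and more highly expressed. Exon number came from assembly, which needs reads, so exon number and level are not independent measures. The median of the mean level over 18 libraries was 0.563 FPKM at 2 exons, 0.823 at 3, 1.15 at 4 or 5, and 1.93 at 6 or more. The share of loci past 0.5 FPKM in 3 libraries was 83.7%, 93.6%, 97.2% and 98.7% in the same order. Over all 881 loci the median of the mean level was 0.769 FPKM, against 0.448 at unannotated single-exon loci and 3.04 at named multi-exon loci. A mean below 1 FPKM was found at 520 loci (59.0%), against 32.8% of named multi-exon loci, and a mean of at least 10 FPKM at 35. The median spread between libraries of a group, on the log2(FPKM + 0.5) scale, was an SD of 0.39 for the loci described here and 0.36 for named multi-exon loci, in both cases among those past the filter. At 66 loci a library at 0 stood beside a library above 1 FPKM in the same group. A total of 43 loci were just inside the filter, with exactly 3 libraries at 0.5 FPKM or more, and 45 were just outside it with exactly 2.

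**Figure D2:**
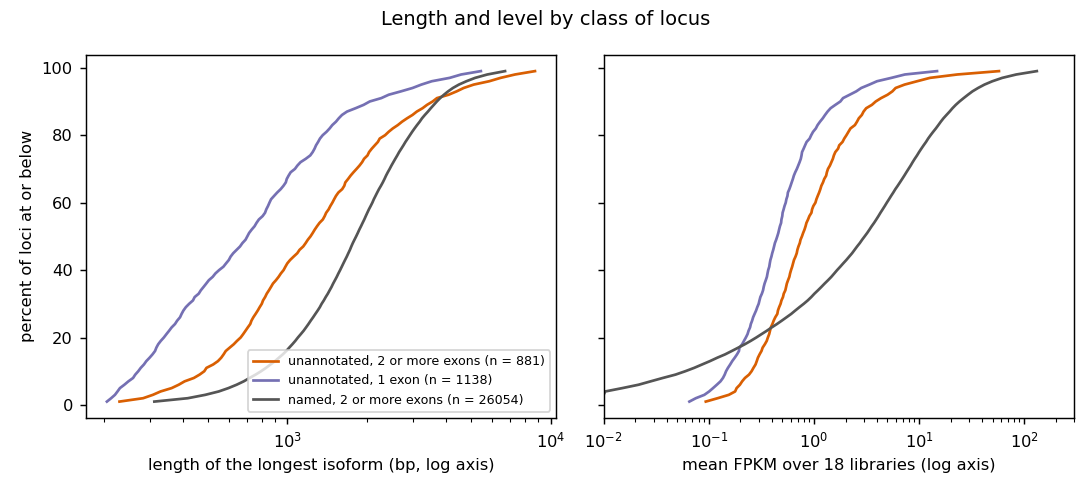
Cumulative share of loci (percent) by length of the longest isoform (left, bp) and by mean FPKM over 18 libraries (right), both on log axes, for the 881 unannotated multi-exon loci (orange), 1138 unannotated single-exon loci (purple) and 26054 named multi-exon loci (grey). The median lengths were 1224, 704 and 1825 bp, and the median levels 0.769, 0.448 and 3.04 FPKM.

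The extremes of length and exon number were different loci. MSTRG.973 on chromosome 1 (8250587 to 8263586, minus strand) had 19 exons in its largest isoform and was detected throughout, at 0.928 to 2.85 FPKM in roots and 2.36 to 6.42 in shoots. MSTRG.29695 on chromosome 12 (15728550 to 15754867, minus strand) had 16 exons and varied little, at 1.79 to 2.63 FPKM in roots and 2.39 to 3.74 in shoots. MSTRG.12263, with 14 exons, had 4.69 to 18.6 FPKM in roots and 5.91 to 13.6 in shoots. These 3 loci of many exons were thus expressed in both tissues in every library.

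The longest spans belonged to loci of 2 exons with 1 long intron. MSTRG.11997 and MSTRG.11998 both covered 116808 bp of chromosome 4 (9093620 to 9210427) on opposite strands, and MSTRG.12017 covered 55342 bp of the same chromosome (9808254 to 9863595). MSTRG.11998 was listed at 0 in all 9 root libraries and reached 38.1 FPKM in ZRS 1, with 0.00974 to 4.29 in the other shoot libraries. MSTRG.12017 had 0.445 to 1.30 FPKM in roots and 0.0147 to 0.189 in shoots. In all, 36 loci overlapped another unannotated multi-exon locus on the other strand and 79 overlapped any locus there. The sources used here do not say that the libraries kept strand, so levels of such pairs are uncertain.

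All 12 chromosomes carried such loci. Chromosome 1 had 96 and chromosome 5 had 46, which is 2.22 and 1.55 per Mb of the stretch up to its last locus. The highest densities were 2.96 per Mb on chromosome 11 and 2.93 on chromosome 10. On chromosomes 11, 10 and 1 named multi-exon loci ran the other way, with 53.8, 60.4 and 85.1 per Mb. This did not hold throughout. Chromosome 12 had 53.5 named and 2.29 unannotated multi-exon loci per Mb, and chromosome 5 had 68.8 and 1.55. For every 100 named multi-exon loci there were 5.51 unannotated ones on chromosome 11, 2.61 on chromosome 1 and 2.21 on chromosome 3. The strands were used about equally, with 436 loci on plus and 445 on minus.

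Most loci stood clear of annotated genes. The span of a named locus was overlapped by 52 (5.90%), 40 of them with the nearest such locus on the other strand and 12 on the same strand, and 34 lay whole inside such a span. The remaining 829 had a median gap of 3782 bp to the nearest named locus (interquartile range 1216 to 9492). A gap of 1 to 2000 bp was found at 286 loci (32.5%) and a gap over 10000 bp at 195 (22.1%). Of the 286 close loci, 58 lay downstream of the neighbour on the same strand. Another 78 lay upstream on the same strand, 65 upstream on the other strand, and 84 downstream on the other strand. Joining loci whose starts were at most 50000 bp apart left 610 alone and gave 103 runs of 2, 15 runs of 3 and 5 runs of 4.

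The 5 runs of 4 loci differed in level and tissue. On chromosome 10, MSTRG.25721, MSTRG.25722, MSTRG.25725 and MSTRG.25729 (10790063 to 10843312) had higher means in shoots than in roots. MSTRG.25721 was listed at 0 in all root libraries but ZRR 1 (5.96 FPKM), and in shoots ran from 0 in ZMS 2 to 172 in ZRS 1. MSTRG.25729 had 0.00946 to 0.155 in roots and 0.103 to 17.3 in shoots. MSTRG.25725 had 0.240 to 0.892 FPKM in roots and 6.86 to 27.1 in shoots. On chromosome 11, MSTRG.28636 had 7.62 to 15.9 FPKM in roots and 0.0115 to 0.165 in shoots, and its neighbours MSTRG.28641, MSTRG.28642 and MSTRG.28645 (together 27820133 to 27931045) had higher means in roots but reached at most 2.17 FPKM. On chromosome 2, MSTRG.5469 had 0.0778 to 0.357 FPKM in roots and 1.35 to 4.23 in shoots, while MSTRG.5467 next to it had 0.456 to 1.40 in roots and 0.101 to 0.658 in shoots. The run on chromosome 8 (10467337 to 10532463) held MSTRG.22272, at 8.57 to 27.0 FPKM in roots and 5.12 to 89.2 in shoots, beside MSTRG.22267, MSTRG.22271 and MSTRG.22273, which reached at most 1.88. The run on chromosome 6 (30573545 to 30614228) was low in all libraries, its highest value being 3.13 FPKM for MSTRG.19184 in ZRR 1.

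Expression in only 1 organ was common. At a threshold of 0.5 FPKM in at least 3 of the 9 libraries of a tissue, 280 loci were detected in roots only, 154 in shoots only, 348 in both and 99 in neither. Detection in 1 tissue thus covered 31.8% and 17.5% of the loci, against 8.72% and 5.61% of named multi-exon loci and 31.1% and 19.9% of unannotated single-exon loci, for roots and shoots in that order. Level bears on such counts. Between 0.5 and 1 FPKM of mean level, 54.5% of 242 unannotated multi-exon loci and 53.0% of 2020 named ones were detected in 1 tissue. Between 1 and 10 FPKM it was 36.5% of 326 and 11.8% of 10991, and at 10 FPKM or more 25.7% of 35 and 1.83% of 6510. At a threshold of 0.1 FPKM, 176 loci were found in roots only, 71 in shoots only and 623 in both. These shares are descriptions, and no test was made of the difference between classes.

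Roots were compared with shoots at each Zn supply by limma on log2(FPKM + 0.5), with all 18 libraries in 1 fit. A locus was called when its log2 fold change was at least 1 in size with a Benjamini-Hochberg adjusted p of at most 0.05. Of 790 loci tested in ZPR/ZPS, 223 (28.2%) were higher and 126 (15.9%) lower in roots, beside 20.5% and 13.5% of all 24431 loci tested. In ZMR/ZMS, 215 (27.2%) were higher and 113 (14.3%) lower, beside 18.5% and 13.4% of all loci. In ZRR/ZRS, 234 (29.6%) were higher and 108 (13.7%) lower, beside 27.6% and 11.8%. In either direction the calls came to 349, 328 and 342 loci, beside 34.1%, 31.9% and 39.4% of all loci. The median log2 fold change was 0.34, 0.38 and 0.48 for these loci and 0.38, 0.36 and 0.58 for all loci, in the same order of comparisons. The split between roots and shoots depended on scaling, because the median over all loci tested was itself above 0. When libraries were scaled to equal medians, the median over all loci in ZPR/ZPS became -0.00, and 154 loci were higher and 173 lower in roots, beside 12.5% and 17.9% of all loci. That scaling gave 161 higher and 157 lower in ZMR/ZMS, beside 12.1% and 17.2%, and 110 higher and 176 lower in ZRR/ZRS, beside 10.9% and 18%. With replicate 1 left out of every group, 183 were higher and 118 lower of 688 tested in ZPR/ZPS, 195 and 90 in ZMR/ZMS, and 195 and 98 in ZRR/ZRS. No share over all loci stands beside these last counts, so they do not show whether the excess in roots is particular to these loci.

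The tissue pattern held across Zn supply for many of the loci. A total of 157 (19.9% of 790) were called higher in roots in all 3 comparisons, beside 14.7% of all loci, and 79 (10.0%) lower in roots in all 3, beside 9.98%. None was called in opposite directions. With equal medians, 93 of the 157 and 79 of the 79 were again called the same way in all 3. That scaling lowered all root over shoot fold changes, so loci lower in roots could hardly lose their calls. No share over all loci stands beside these counts, so they show nothing particular to these loci. The 3 comparisons share no library.

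**Figure D3:**
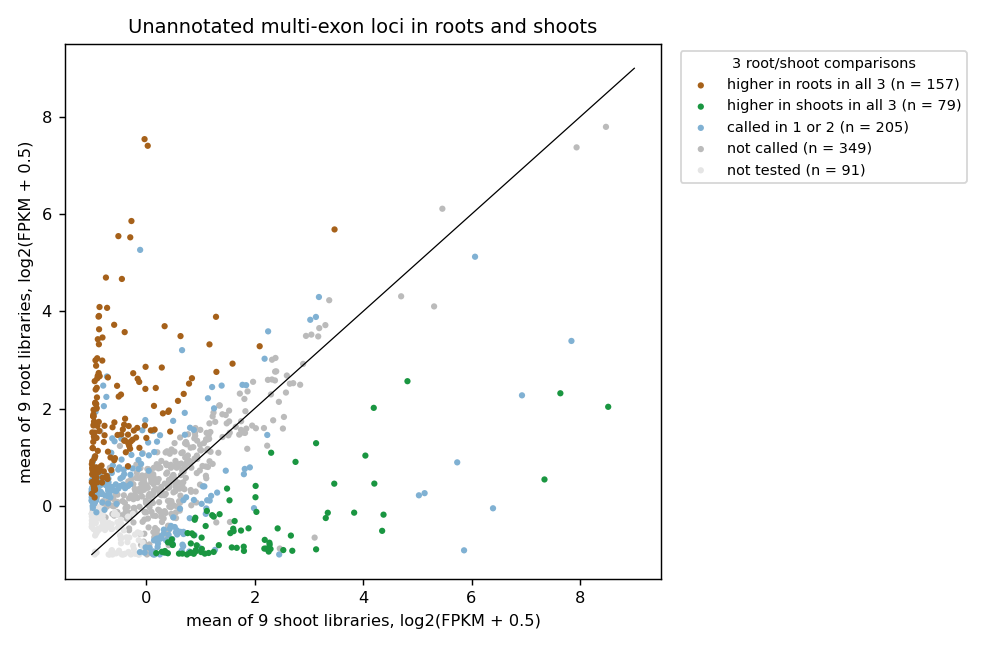
Mean level of each of the 881 loci over 9 root libraries (vertical) and 9 shoot libraries (horizontal), as log2(FPKM + 0.5), with the line of equal levels. Brown points are the 157 loci called higher in roots in all 3 root/shoot comparisons and green points the 79 called higher in shoots.

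The strongest root loci were nearly silent in shoots. MSTRG.1363, of 2 exons on chromosome 1 (12751821 to 12753433, plus strand), had 238, 179 and 45.8 FPKM in ZRR, 208, 232 and 150 in ZMR and 215, 154 and 252 in ZPR. In shoots it stayed between 0.266 and 1.10. Its log2 fold change was 7.80 in ZPR/ZPS (SE 0.45, limma adjusted p = 2.6e-09). MSTRG.9648, of 2 exons on chromosome 3 (14454563 to 14456785, plus strand), had 176, 139 and 12.4 FPKM in ZRR, 143, 194 and 161 in ZMR and 215, 188 and 293 in ZPR. It did not pass 0.991 in any shoot library (log2 fold change 7.82, SE 0.66, limma adjusted p = 1.5e-07). MSTRG.11876 on chromosome 4 (6011557 to 6012589, plus strand) had 34.2 to 77.7 FPKM in roots and 0.0470 to 0.475 in shoots. MSTRG.1424 on chromosome 1 (13847721 to 13849298, minus strand) had 6.66 to 68.4 in roots and 0.0639 to 0.365 in shoots. For MSTRG.1363, MSTRG.9648 and MSTRG.1424 the lowest root value was that of ZRR 3, the library of least depth. MSTRG.26112 on chromosome 10 (16607630 to 16626621, minus strand), inside the span of Os10g0454300 on the other strand, had 7.69 to 112 FPKM in roots and 0.104 to 0.600 in shoots.

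Loci higher in shoots fell into steady ones and ones led by replicate 1. MSTRG.11872, of 3 exons on chromosome 4 (5923340 to 5924869, minus strand), had 0 to 0.576 FPKM in roots and 11.4 to 33.3 in shoots (log2 fold change -5.38 in ZPR/ZPS, SE 0.36, limma adjusted p = 1.0e-08). MSTRG.26540, of 2 exons on chromosome 10 (20477592 to 20485153, plus strand), had 0 to 0.973 in roots and 11.9 to 38.3 in shoots (-5.07, SE 0.37, limma adjusted p = 2.6e-08). MSTRG.25722, the most abundant locus of the chromosome 10 run, had 0.0604 to 3.64 FPKM in roots, while shoots had 926 in ZRS 1, 131 in ZMS 1, 191 in ZPS 1 and 23.5 to 43.9 in the other 6 libraries. Its log2 fold change in ZPR/ZPS was -6.36 (SE 1.10, limma adjusted p = 0.00023) and -6.10 without replicate 1 (limma adjusted p = 5.4e-05). MSTRG.11999 on chromosome 4 (9170325 to 9205598, minus strand), within the span of MSTRG.11997, had 0.0181 to 15.3 in roots. In shoots it had 2185 FPKM in ZRS 1, 256 in ZMS 1, 507 in ZPS 1 and 1.67 to 86.8 in the others. MSTRG.10983 on chromosome 3 (31811130 to 31816978, plus strand) had 0.385 to 11.0 in roots, and in shoots 1224 in ZRS 1, 128 in ZMS 1, 137 in ZPS 1 and 12.6 to 87.0 in the others.

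Other loci among the 5 most abundant of a tissue were found in both tissues. MSTRG.23552 and MSTRG.23553 lie on opposite strands at the start of chromosome 9 (1001 to 36559 and 3541 to 36542), the end where the ribosomal RNA gene array of japonica rice is known to lie, and had 36 and 28 isoforms. MSTRG.23552 had 114 to 498 FPKM in roots and 112 to 1610 in shoots, and did not differ beyond its spread in ZPR/ZPS (log2 fold change -0.54, SE 0.87, limma adjusted p = 0.63). Without replicate 1 it had 114 to 233 in roots and 112 to 182 in shoots. MSTRG.23553 had 81.1 to 383 in roots and 60.8 to 1305 in shoots, and without replicate 1 it had 81.1 to 171 in roots and 60.8 to 101 in shoots. MSTRG.26537 on chromosome 10 (20452559 to 20460895, minus strand) had 3.50 to 24.4 FPKM in roots and 8.12 to 1215 in shoots, and passed the test in ZRR/ZRS only. Without replicate 1 it had 3.50 to 8.05 in roots and 8.12 to 79.7 in shoots. The highest shoot value of all 3 loci was that of ZRS 1. MSTRG.16116 on chromosome 5 (24862365 to 24865001, plus strand) was the steadiest of the abundant loci, at 60.8 to 75.7 FPKM in roots and 33.9 to 50.7 in shoots. Its ranges did not overlap between tissues, yet its log2 fold change of 0.63 (SE 0.15, limma adjusted p = 0.0035) was below the size required for a call.

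The tissue difference of a locus went only loosely, or hardly at all, with that of its nearest named locus. Across 36 pairs that overlapped, Pearson's r between their log2 fold changes in ZPR/ZPS was 0.44, and across 111 pairs over 10000 bp apart it was 0.40. Across 90 pairs on the same strand within 2000 bp it was 0.42, and across 103 on the other strand within 2000 bp it was 0.26. On the other strand within 2000 bp it was 0.57 across 39 loci upstream of the neighbour and 0.081 across 63 loci downstream of it. These are correlations across loci that share all their libraries, and loci are not independent replicates.

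Only a few loci changed with Zn supply. Zn comparisons were fitted within a tissue on its 9 libraries, and 782 of the 881 loci were tested in at least 1 of the 4. A total of 9 were called in at least 1 comparison, out of 42 of all loci called (0.175% of 23980 tested). No unannotated single-exon locus was called. The 9 include MSTRG.18312, MSTRG.22477 and MSTRG.22484. These passed the filter of their tissue through ZMS or ZMR alone, the group where they were high, so the count is a description. Of these 9 loci, 7 lay on chromosome 8 between 15749440 and 16193116, 1 beside OsZIP10 and 1 beside metallothionein genes.

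In shoots, the locus that changed was MSTRG.18312. It has 6 exons and 2687 bp on chromosome 6 (21828550 to 21832593, plus strand), and begins 1484 bp after the end of OsZIP10 (Os06g0566300) on the same strand. Its levels were 0.142, 0.254 and 0.105 FPKM in ZRS, 2.40, 1.76 and 1.60 in ZMS and 0.170, 0.166 and 0.199 in ZPS. All 3 ZMS libraries were above all others. In shoots it passed the filter through the 3 ZMS libraries alone, none of the other 6 reaching 0.5 FPKM, so a locus tested on this account had to be high in ZMS, and its calls are given as a description. With no filter on low FPKM its limma adjusted p-values were 0.027 in ZMS/ZPS and 0.030 in ZRS/ZMS. It was the only one of 502 loci called higher in ZMS/ZPS, beside 0.0634% of all 20512 loci tested (log2 fold change 1.82, SE 0.23, limma adjusted p = 0.035). It was also the only one called lower in ZRS/ZMS, beside 0.0536% (log2 fold change -1.85, SE 0.23, limma adjusted p = 0.036). With replicate as a block the limma adjusted p-values were 0.11 and 0.11, so that both calls were lost. Leaving out any 1 ZPS or ZRS library gave limma adjusted p-values of 0.050 (ZRS 1) to 0.20 (ZPS 2) in ZMS/ZPS and 0.061 (ZRS 2) to 0.16 (ZRS 3) in ZRS/ZMS, and the call in ZMS/ZPS without ZRS 1 was the only one kept. Without any 1 ZMS library, or without replicate 1 of all groups, the locus fell below the filter and was not tested.

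The other unannotated multi-exon loci did not pass in shoots. In ZMS/ZPS, 9 of 502 (1.79%) had an unadjusted limma p below 0.05, beside 1.68% of all loci, and the groups did not overlap at 30 of them (5.98%), 17 higher and 13 lower in ZMS, beside 6.5%. In ZRS/ZMS, 21 (4.18%) had such a p, beside 5.84%, and 15 loci were higher and 32 lower in every ZRS library (9.36%), beside 10.1%. In ZRS/ZPS, a comparison added after the values had been seen, 0 of 502 were called by limma, beside 0.0244% of all loci. An unadjusted limma p below 0.05 was found there at 15 loci (2.99%), beside 4.14%. Shares of these loci were thus close to or below those of all loci in shoots.

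In roots the Zn-deficient group was again the highest, at lower levels. MSTRG.18312 had 0.0620, 0.0147 and 0.120 FPKM in ZRR, 0.821, 0.510 and 0.333 in ZMR and 0.0172, 0.0375 and 0 in ZPR. All ZMR libraries again stood above the others, but only 2 of 9 root libraries reached 0.5 FPKM, so the locus was not tested there. OsZIP10, a Zn transporter gene, had 1.63, 1.50 and 1.62 FPKM in ZRR, 32.3, 19.6 and 20.0 in ZMR and 0.749, 0.904 and 0.984 in ZPR. Its shoot values were 1.98, 1.46 and 2.1 in ZRS, 38.8, 49.6 and 28.4 in ZMS and 3.26, 2.81 and 2.84 in ZPS. Coverage of MSTRG.18312 was 12.4 to 16.7 reads per base in ZMS and 1.15 to 1.39 in ZPS. Whether its transcript is a continuation of OsZIP10 was not tested.

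**Figure D4:**
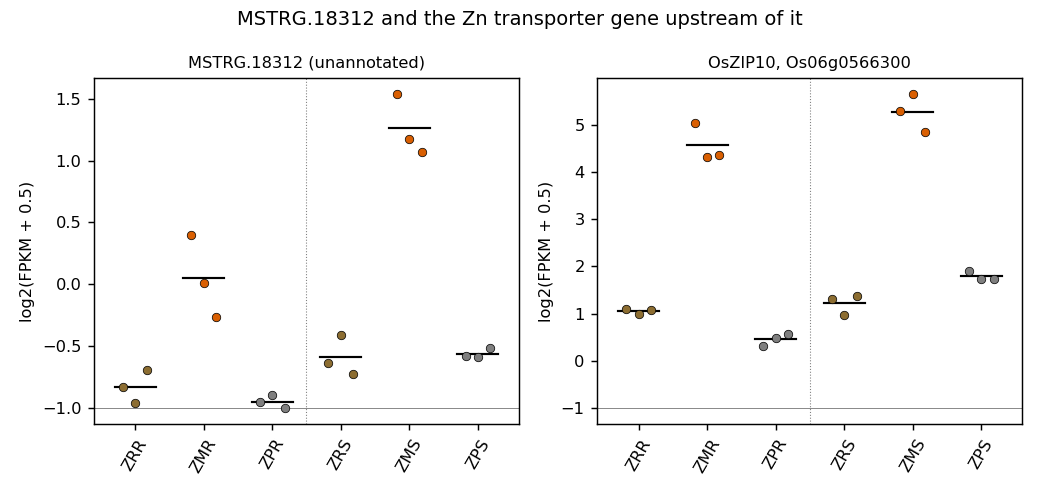
log2(FPKM + 0.5) of MSTRG.18312 (left) and of OsZIP10 (right, a separate vertical scale) in the 3 libraries of each group, with a bar at the group mean and a grey line at the value of 0 FPKM. In both, the ZMR and ZMS libraries stand above the other libraries of their tissue.

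No locus was called in ZMR/ZPR. Of 628 loci tested, 0 passed, beside 0.046% of all 21717 loci, and 35 (5.57%) had an unadjusted limma p below 0.05, beside 3.56% of all loci. The median log2 fold change was 0.03 for these loci and 0.00 for all loci. The 3 loci of smallest p were MSTRG.22477 and MSTRG.22484 on chromosome 8, with log2 fold changes of 2.08 and 1.72 (limma adjusted p = 0.054 and 0.098), and MSTRG.29828. The last, of 5 exons on chromosome 12 (19546081 to 19547940, plus strand), had 2.48, 1.90 and 1.31 FPKM in ZRR, 1.98, 0.896 and 1.01 in ZMR and 10.0, 5.07 and 6.26 in ZPR. Both groups from Zn-deficient plants were thus below all ZPR libraries, but the log2 fold change of -2.08 in ZMR/ZPR (SE 0.33) did not pass (limma adjusted p = 0.12). In shoots it did not exceed 0.0547. The groups did not overlap at 66 of the 628 loci, 37 of them higher and 29 lower in ZMR, which is 10.5% beside 9.23% of all loci.

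In resupplied roots 8 loci were lower than in Zn-deficient roots. Of 628 tested in ZRR/ZMR, 8 (1.27%) were called lower and 0 higher, beside 0.12% of all loci called lower. An unadjusted limma p below 0.05 was found at 39 loci (6.21%), beside 3.51%, and the groups did not overlap at 50 (7.96%), 27 higher and 23 lower in ZRR, beside 7.61%. The median log2 fold change was 0.09 for these loci and 0.07 for all. The 8 were 7 loci on chromosome 8 and MSTRG.30070 on chromosome 12. MSTRG.22477 and MSTRG.22484 passed the filter through the 3 ZMR libraries alone, so they had to be high there and add nothing to the count, which is 6 without them. Another 5 of the chromosome 8 loci reached 0.5 FPKM in all ZMR and all ZPR libraries and in no ZRR library, and MSTRG.30070 also in 1 ZRR library. Leaving out 1 library at a time gave 5 to 8, with 5 without any 1 ZMR library, ZRR 2 or ZRR 3. Without replicate 1 of all groups 1 was called, MSTRG.22483, with MSTRG.22477 and MSTRG.22484 below the filter.

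The 7 loci on chromosome 8 all lie on the minus strand within the stretch given above, 5 of them having 4 exons in their largest isoform and all of them having spliced lengths between 666 and 1782 bp. MSTRG.22483 (16049904 to 16051217) had 0.127, 0.291 and 0.120 FPKM in ZRR, 12.5, 9.24 and 6.80 in ZMR and 2.90, 3.01 and 3.04 in ZPR. Its log2 fold change in ZRR/ZMR was -3.85 (SE 0.24, limma adjusted p = 0.00056). MSTRG.22465 (15749440 to 15750814) had 0.283, 0.138 and 0.467 in ZRR, 10.9, 13.1 and 9.23 in ZMR and 3.78, 2.19 and 5.45 in ZPR (-3.87, SE 0.31, limma adjusted p = 0.0027). MSTRG.22466 (15753010 to 15754290) had 0.385, 0.241 and 0.216 in ZRR, 15.7, 15.0 and 9.45 in ZMR and 2.88, 2.41 and 6.12 in ZPR (-4.13, SE 0.34, limma adjusted p = 0.0027). In each, all ZMR libraries lay above all ZPR libraries and all ZRR libraries below them.

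The other 4 kept this order at lower levels. MSTRG.22474 (16190420 to 16193116) had 0.124, 0.288 and 0.116 FPKM in ZRR, 7.35, 10.1 and 5.52 in ZMR and 1.72, 1.29 and 3.41 in ZPR. MSTRG.22469 (15814287 to 15820735, 2 isoforms) had 0.233, 0.207 and 0.182 in ZRR, 6.08, 12.1 and 5.08 in ZMR and 1.81, 2.07 and 5.03 in ZPR, so that its lowest ZMR and highest ZPR values nearly met. MSTRG.22477 (15933782 to 15935869, 3 exons) had 0.155, 0.0632 and 0.0456 in ZRR, 3.40, 3.92 and 2.04 in ZMR and 0.469, 0.288 and 0.267 in ZPR. MSTRG.22484 (16058644 to 16061577) had 0, 0.0523 and 0 in ZRR, 1.92, 1.98 and 1.52 in ZMR and 0.112, 0.0880 and 0.449 in ZPR. The log2 fold changes of these 4 in ZRR/ZMR were -3.56, -3.45, -2.59 and -2.15, with limma adjusted p-values of 0.0062, 0.022, 0.0096 and 0.022. With replicate as a block the limma adjusted p-values were 0.064, 0.12, 0.032 and 0.12, so that the calls of MSTRG.22474, MSTRG.22469 and MSTRG.22484 were lost. For MSTRG.22477 and MSTRG.22484, which entered the fit through ZMR alone, these values are a description.

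In sum over the 7 loci, ZRR had 1.31, 1.28 and 1.15 FPKM, ZMR 57.9, 65.5 and 39.6, and ZPR 13.7, 11.3 and 23.8. The roots of resupplied plants were therefore below those never deprived of Zn at 7 of 7 loci, in every library. These loci had been picked as lower in ZRR/ZMR, so the count is a description. All ZRR libraries lay below all ZPR libraries at 37 of the 628 loci tested in roots, beside 839 of all 21717 loci. The comparison ZRR/ZPR was added after the values had been seen. An unadjusted limma p below 0.05 was found there at 51 of 628 loci (8.12%), beside 4.41% of all loci. The groups did not overlap at 12.7% of the 628, 43 higher and 37 lower in ZRR, beside 8.34%. In ZRR/ZPR 1 of 628 loci was called, beside 0.0184% of all loci called lower. It was MSTRG.22483 (log2 fold change -2.37, SE 0.24, limma adjusted p = 0.036). Its limma adjusted p was 0.13 without replicate 1 of all groups and 0.12 with replicate as a block, so that the call was lost. Shoots did not exceed 0.262 FPKM at any of the 7 loci, and MSTRG.22484 was listed at 0 in all 9 shoot libraries.

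The region also holds annotated genes with the same pattern. Of 20 loci with a RAP name from Os08g0346500 (15710750) to the end of MSTRG.22474 (16193116), 13 were tested in ZRR/ZMR and 5 were called, all lower. Among them Os08g0347000, described as a hypothetical conserved gene of 4 exons, had 0.672, 0.877 and 0.275 FPKM in ZRR, 25.8, 30.6 and 18 in ZMR and 4.94, 5.13 and 6.64 in ZPR. Os08g0346900, Os08g0352100 and Os08g0353700 were the other genes. The fifth locus, MSTRG.22475, carries the names of the last 2 of these genes and spans 15843654 to 16151817, so that MSTRG.22477, MSTRG.22483 and MSTRG.22484 lie inside it on the same strand. Near-identical copies would share reads under the alignment used, which kept several alignments per read, so the level of each single locus is uncertain. Sequence identity among the loci was not analysed here. Of the 9 unannotated multi-exon loci of the region, the 2 not called were MSTRG.22473, at 0.234 to 1.72 FPKM in ZMR and at most 0.275 in all other libraries, and MSTRG.22481. MSTRG.22481 (16004361 to 16015740) had 0 to 0.0911 in roots and 0.296 to 2.24 in shoots, and was named after its values were seen, as was MSTRG.22473.

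MSTRG.30070 had the largest fall of the 8. It has 3 exons and 774 bp on chromosome 12 (23378602 to 23380078, minus strand), inside the span of Os12g0568166 on the other strand. Os12g0568200 and Os12g0568500, both described as type 1 metallothioneins of 3 exons on the minus strand, follow at 23383189 and 23390501. MSTRG.30070 had 0.683, 0.488 and 0.212 FPKM in ZRR, 122, 89.2 and 63.8 in ZMR and 12.1, 8.36 and 44.4 in ZPR. ZMR stood above ZPR in every library, although ZPR 3 stood well above the other ZPR libraries, and ZRR was below both. The log2 fold change was -6.57 in ZRR/ZMR (SE 0.56, limma adjusted p = 0.0034) and 2.38 in ZMR/ZPR (SE 0.56, limma adjusted p = 0.42). Without replicate 1 of all groups the value in ZRR/ZMR was -6.50, with a limma adjusted p of 0.10. Shoots had 0.221 to 0.680 FPKM.

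Of the metallothionein genes beside it, 1 had the same order of groups. Os12g0568200 had 10.0, 9.23 and 2.54 FPKM in ZRR, 122, 112 and 84.4 in ZMR and 44.5, 37.4 and 80.4 in ZPR, which is the order seen at MSTRG.30070 (log2 fold change -3.96 in ZRR/ZMR, SE 0.49, limma adjusted p = 0.028). Os12g0568500 had 330.2, 191 and 17.3 in ZRR, 795, 1806 and 497 in ZMR and 2599, 2355 and 3562 in ZPR, so its ZMR libraries were all below ZPR, and it was not called in ZRR/ZMR. MSTRG.30070 may share reads with these genes if its sequence is close to theirs, which was not analysed here.

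**Figure D5:**
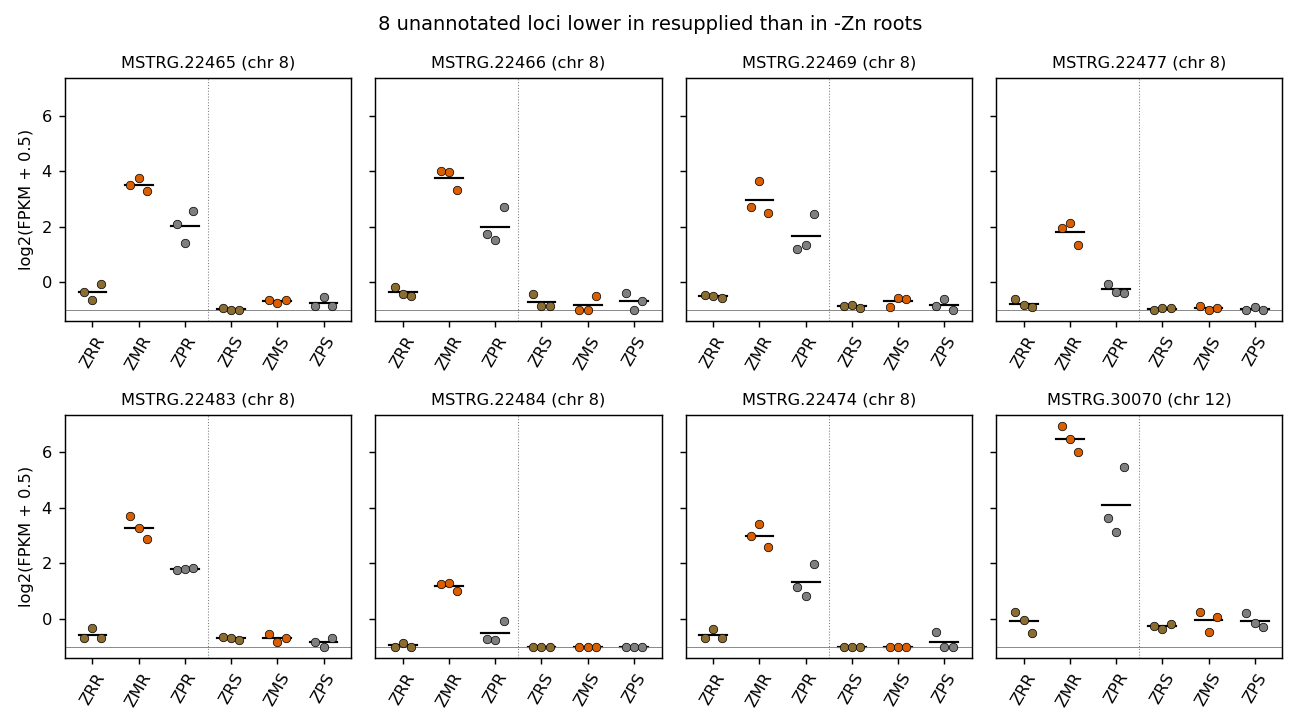
log2(FPKM + 0.5) of the 8 loci called lower in ZRR/ZMR, in the 3 libraries of each group, with a bar at the group mean, a dotted line between roots and shoots, and a grey line at the value of 0 FPKM. In all 8 the ZMR libraries are the highest, the ZPR libraries lie between, and the ZRR libraries are near the level of the shoots.

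Of the 881 loci, 10 lay within 10000 bp of a named locus called in at least 1 Zn comparison, and 7 of the 10 were called themselves. The 3 that were not were MSTRG.13797 beside Os04g0617900, a germin-like protein gene, MSTRG.16383 beside Os05g0549700, a threonine synthase gene, and MSTRG.22481. The 2 called loci without such a neighbour, MSTRG.22469 and MSTRG.22474, both belong to the chromosome 8 group. Of all loci tested in a Zn comparison, 0.175% were called. Among the 7, MSTRG.18312 passed the filter in shoots through ZMS alone, and MSTRG.22477 and MSTRG.22484 in roots through ZMR alone. These counts are a description, since loci of a region share position and may share reads.

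Root and shoot responses were compared directly in the fit of 18 libraries. For deficiency, ZMR/ZPR minus ZMS/ZPS, 2 of 790 loci were called, both with the larger response in roots, beside 0.0327% of all 24431 loci. They were MSTRG.22477 (difference of log2 fold changes 2.05, SE 0.28, limma adjusted p = 0.0093) and MSTRG.22484 (1.72, SE 0.26, limma adjusted p = 0.020). Of all 18 libraries only the 3 of ZMR reached 0.5 FPKM at these loci, so they passed the filter only through the group where they were high, and the count of 2 is a description. The next count, for resupply, includes both. For resupply, ZRR/ZMR minus ZRS/ZMS, 8 loci were called, all more negative in roots, beside 0.09% of all loci. They were the 8 called in ZRR/ZMR. Shoots did not exceed 0.680 FPKM at any of them, so a fall in shoots could hardly be seen. The differences thus mostly repeat the root comparison. Without replicate 1 of all groups, 0 were called for deficiency and 3 for resupply, 1 of them less negative in roots. MSTRG.18312 did not pass in either (differences -0.82 and 0.97, limma adjusted p = 1.0 and 0.60).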

How the data were processed

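The authors sequenced poly(A) RNA as paired ends and aligned reads to IRGSP-1.0 with TopHat on a Bowtie2 index, keeping several alignments per read, and their notes also name FastQC, Cufflinks and Cuffdiff. The assembler of the MSTRG loci is not given in the sources used here. The authors deposited FPKM per locus and per isoform, and coverage per isoform in reads per base, whose ratio to FPKM is constant within a library. Within 0.0001 FPKM, locus FPKM equals isoform FPKM at 608 of 608 loci with 1 isoform and the isoform sum at 0 of 273 with more. Read counts and the authors' fold changes and p-values were not used. Library columns that write L for shoots were taken as S.

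log2(FPKM + 0.5) was fitted with limma 3.58.1 in R 4.3.3 (eBayes with trend, group as the only term), on the 9 libraries of a tissue for Zn comparisons and on all 18 otherwise. A locus was tested where 3 or more libraries of the fit reached 0.5 FPKM, and p-values were adjusted over all tested loci. The step was tested on simulated data. Fits were repeated with another pseudocount, filter, scaling or model, and with each library left out. An exact test of 3 against 3 libraries cannot go below 0.1, so none is given. p-values measure the spread between pools of seedlings. Same-numbered libraries deviated together in ZMS/ZPS, ZRS/ZMS and ZMR/ZPR (all correlations of residuals over 0.1, lowest 0.12). A fit with replicate as a block is therefore given where it loses the Zn call of a locus. Python 3.11.15 with pandas 2.3.3 and matplotlib 3.10.9 did the rest.

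The loci, lists and tests were chosen with earlier results of these data known. Named loci are unannotated ones of the study's main tables, those called in a Zn comparison or its interaction (or the 3 of smallest p), the 5 most abundant per tissue, the 5 with the largest mean difference each way between tissues, the 3 longest, the 3 with most exons, and all runs of 4 (tied in size). Sequences were not used here.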

Additional observations from a re-analysis of the deposited data

Results flagged for a closer look

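Responses to Zn that differed between roots and shoots were picked out by the interaction test of the 18-library fit. For deficiency (ZMR/ZPR minus ZMS/ZPS) these were MSTRG.22477, with a difference of log2 fold changes of 2.05 (limma adjusted p = 0.0093), and MSTRG.22484, with 1.72 (limma adjusted p = 0.020). Both passed the filter on low FPKM through the 3 ZMR libraries alone, the group where they were high, so their differences are a description. For resupply (ZRR/ZMR minus ZRS/ZMS) the differences were -3.57 for MSTRG.22465, -4.25 for MSTRG.22466 and -6.36 for MSTRG.30070 (limma adjusted p = 0.00027 each). They were -3.26 for MSTRG.22469 (limma adjusted p = 0.0050), -3.56 for MSTRG.22474 (0.00050) and -2.57 for MSTRG.22477 (0.00050). They were -3.85 for MSTRG.22483 (1.4e-05) and -2.15 for MSTRG.22484 (0.0013). All 8 loci were at or below 0.680 FPKM in every shoot library, so a fall in shoots could hardly be seen.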

How the results depend on the processing

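Counts of called loci are given here where they moved by over 1.5 times. The counts of this section stand without the share over all loci under the same setting. They therefore do not show whether these loci moved more than other loci did. In ZMS/ZPS and in ZRS/ZMS the single called locus became 0 with a pseudocount of 0.1, a filter of 1 FPKM, equal medians, the replicate block, only the 6 libraries compared, or replicate 1 of all groups left out. In ZMR/ZPR the count of 0 became 1 with a pseudocount of 1, 1 with quantile normalization, 2 without the eBayes trend, 4 with zeros taken as missing and 13 with all 18 libraries in 1 fit. In ZRR/ZMR the count of 8 became 5 with the replicate block and 1 without replicate 1 of all groups. In ZRR/ZPR the count of 1 became 0 with a pseudocount of 1, no filter, the replicate block or replicate 1 left out, 6 with zeros taken as missing and 13 with all 18 libraries. A pseudocount of 1 gave 220 in ZPR/ZPS, 212 in ZMR/ZMS and 227 in ZRR/ZRS, while the replicate block gave 366, 340 and 353. The difference in deficiency response between tissues had 2 loci. It had 0 with a pseudocount of 0.1, 1 with a filter of 1 FPKM, 1 with equal medians, 9 with zeros taken as missing, 3 with the replicate block and 0 without replicate 1. The difference in resupply response had 8 loci, 8 with the replicate block and 3 without replicate 1. At 1 FPKM 192 loci were detected in both tissues, and at 0.1 FPKM 623 in both, 71 in shoots only and 176 in roots only. The cause of these moves was not tested.

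Leaving out 1 library at a time gave 312 to 354 loci in ZPR/ZPS, 306 to 338 in ZMR/ZMS and 321 to 361 in ZRR/ZRS. It gave 0 to 1 in ZMS/ZPS, 0 to 1 in ZRS/ZMS, 0 to 2 in ZMR/ZPR, 5 to 8 in ZRR/ZMR and 0 to 1 in ZRR/ZPR. It gave 0 to 5 for the deficiency difference and 6 to 9 for the resupply difference. Without ZMR 1 the 1 locus called in the deficiency difference had the lower value in roots, whereas the 2 called with all libraries had the higher value in roots. Equal medians turned the split of tissue calls to 154 higher and 173 lower in ZPR/ZPS and to 110 higher and 176 lower in ZRR/ZRS. Among the fold changes of named loci that were followed through these fits, chiefly those called or of smallest p, none changed sign. Fold changes near 0, such as 0.0030 for MSTRG.23553 in ZPR/ZPS, were not among them. In ZRR/ZMR 1 same-numbered pair had a residual correlation of 0.088, below 0.1, and the replicate block is a description. Not every library correlated best with its own number in ZRR/ZMR, nor in ZMS/ZPS, ZRS/ZMS or ZMR/ZPR. In all of these comparisons the libraries share only a number. Leaving out replicate 1 of all groups, and the comparisons ZRS/ZPS and ZRR/ZPR, were added after the data had been seen. At 3.67 to 7.75 reads per base per FPKM, a locus at the filter rests on few reads.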
